A study of Danio rerio with 12 samples.

Results

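The interaction of genotype and age was examined in RNA from zebrafish embryos: for each gene, the log2 fold change of mutant over wild type at 72 hours post fertilization (hpf) minus the same fold change at 48 hpf. A positive difference means that the mutant level, relative to wild type, stood higher at 72 than at 48 hpf. All 12 libraries of the series enter this contrast, and 21068 of the 31465 genes in the table had enough counts to be tested. The 4 groups held 3 libraries each: embryos described as Mycn mutant at 48 hpf, wild-type embryos of strain AB at 48 hpf, the mutant at 72 hpf and wild type at 72 hpf. All groups shared culture in 0.3X Danieau buffer, TRIzol extraction of total RNA and a standard Illumina library. The labels do not state the allele or zygosity of the mutant, the number of embryos in a library or whether libraries shared a clutch. P-values thus cover the spread among the deposited libraries only, and that spread may be technical. The material is labelled as embryonic cells and no dissected tissue is named, so fewer cells of a type and less RNA per cell cannot be told apart. Markers of every tissue looked for were measured, with 25 genes tested for goblet and enteroendocrine cells, the fewest, and 85 for hepatocytes, the most.

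The protein made from mycn binds DNA together with its partner Max, as other Myc transcription factors do, and drives genes of cell growth, the making of ribosomes and division. Loss of its human counterpart MYCN causes Feingold syndrome 1, with closures of the oesophagus or duodenum among its signs. In the days covered here the zebrafish liver and gut grow out from the endoderm and begin to express the genes of the mature organs. A contrast of both ages asks which differences between the genotypes belong to 1 stage and which turn round between them.

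Library totals lay between 14793715 and 19732340 counts, and age was by far the larger source of variation: 7528 genes (35.7%) increased and 7257 (34.4%) decreased between 48 and 72 hpf in the mutant, and 7450 (35.4%) and 7468 (35.4%) in wild type. Replicates spread more at 48 hpf, with a biological coefficient of variation of 0.136 in mutant and 0.200 in wild-type libraries, against 0.0848 and 0.0703 at 72 hpf. Wild-type 48 hpf replicates 2 and 3 stand apart in this respect, since the number of genes called in the contrast more than doubled when either was left out (276 and 264 genes). mycn itself (ENSDARG00000006837) held 203, 212 and 251 CPM (counts scaled to the size of the library, in edgeR's unit and with its TMM factors) in mutant replicates 1 to 3 at 48 hpf, against 71.2, 90.1 and 60.8 CPM in wild type. At 72 hpf it held 158, 158 and 141 CPM in the mutant, against 76.3, 75.6 and 79.8 CPM in wild type. Its RNA was thus higher in every mutant library, by 1.59 on the log2 scale at 48 hpf (SE 0.13, adjusted p = 5.45e-06) and by 0.98 at 72 hpf (SE 0.13, adjusted p = 0.00144). The difference between the ages, -0.60 (SE 0.18, adjusted p = 0.192), did not pass. What the mutation does to the protein cannot be told from RNA levels. As the allele is not stated and the RNA was higher, the libraries are called mutant-labelled, and directions are given as the labels have them.

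The effect of the mutant label differed between the ages for 99 of 21068 genes, or 0.47% (edgeR quasi-likelihood test, Benjamini-Hochberg adjusted p under 0.05), with 60 positive and 39 negative differences. Most of these were differences seen at 48 hpf that were no longer called at 72 hpf. This held for 78 genes, 55 of them lower and 23 higher in mutant-labelled embryos at 48 hpf. A further 16 genes were called at 72 hpf alone, 4 higher and 12 lower in mutant-labelled embryos, 3 were called at both ages with opposite signs, and 2 at neither age alone. None of the 99 was called at both ages in 1 direction. For scale, 641 genes (3.04%) differed between the genotypes at 48 hpf in the same model, 219 higher (1.04%) and 422 lower (2%), and 117 (0.555%) at 72 hpf, 28 higher (0.133%) and 89 lower (0.422%). This model holds 1 spread for all groups, although replicates spread more at 48 hpf. limma-voom with a weight per group turned the order round, with 214 genes at 48 hpf and 635 at 72 hpf. Of its 107 called differences 70 were at 48 hpf only. The contrast held 2187 genes (10.4%) at an unadjusted p under 0.05.

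The 78 genes called at 48 hpf alone had a median log2 fold change of -0.93 at 48 hpf and of 0.05 at 72 hpf. Mutant-labelled and wild-type libraries did not overlap for 77 of them at 48 hpf and for 34 at 72 hpf, against 16.8% and 20.1% of all tested genes. The sign at 72 hpf was the opposite one for 61 of the 78, and 29 had an unadjusted p under 0.05 there, against 7.75% of all tested genes. Both ages entered the choice of these genes, so these counts describe them and are no test. Of these 78 genes 27 increased and 38 decreased with age in wild type, while 39 increased and 19 decreased in mutant-labelled embryos. Of all tested genes 35.4% increased and 35.4% decreased in wild type, and 35.7% and 34.4% in mutant-labelled embryos. The choice of the genes enters these counts too. The 16 genes called at 72 hpf alone had medians of 0.11 at 48 hpf and -0.89 at 72 hpf, with no overlap between the genotypes for 5 and for 16 of them.

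The count depends on single libraries. It fell to 54 and 51 without mutant-labelled 48 hpf replicates 1 and 2, to 43, 37 and 24 without mutant-labelled 72 hpf replicates 1, 2 and 3, and to 47, 23 and 37 without wild-type 72 hpf replicates 1, 2 and 3. It was 105 without mutant-labelled 48 hpf replicate 3 and 108 without wild-type 48 hpf replicate 1. With library totals as the only scaling 116 genes passed, 43 positive and 73 negative, and the median difference of all genes moved to -0.09 from 0.01. No called gene changed sign in any of the 19 alternatives run, and 16 of the 99 were called in each alternative that tested them. Of these 16, 11 have an ordinary symbol: mgst2, tmem176l.3a, tnfaip2a, ppm1h, znf1156, hce2l2, clu, cyp2ad3, gmds, rrm2 and gsta.1.

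**Figure D1:**
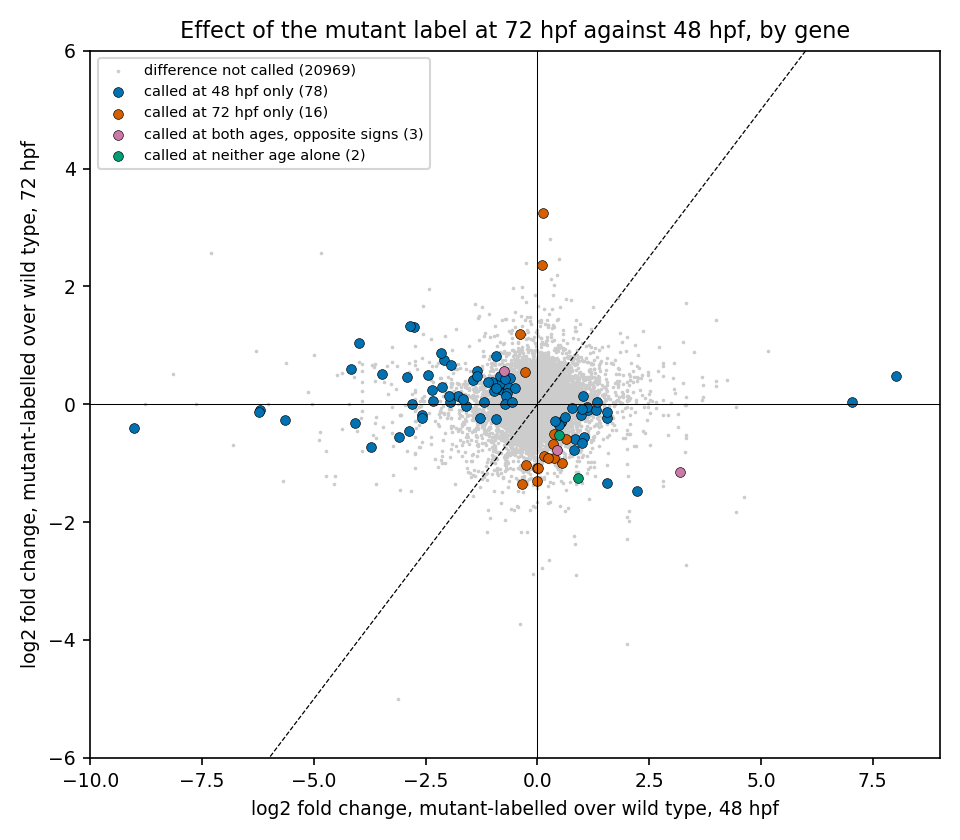
Each point is a gene, with its log2 fold change of mutant-labelled over wild type at 48 hpf on the x axis and at 72 hpf on the y axis. The dashed line marks equal effects at both ages, grey points are the 20969 genes whose difference was not called, and coloured points are the 99 called genes by class (3 grey genes lie outside the axes). The 78 genes called at 48 hpf only had a median of 0.05 at 72 hpf, and 61 of them had the opposite sign there.

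The genes lower in mutant-labelled embryos at 48 hpf alone were led by mgst2, a microsomal glutathione transferase. It held 6.07, 5.11 and 5.96 CPM in mutant-labelled and 37.4, 31.9 and 33.0 CPM in wild-type libraries at 48 hpf, and 5.16, 6.66 and 5.31 CPM in mutant-labelled against 7.12, 6.72 and 5.598 CPM in wild-type libraries at 72 hpf. Wild type at 48 hpf was the only group that stood high, and the genotypes overlapped at 72 hpf. The difference was 2.39 on the log2 scale (SE 0.20, adjusted p = 5.71e-05), from effects of -2.57 at 48 hpf and -0.18 at 72 hpf. tmem176l.3a, a membrane protein gene, followed the same course. Its levels were 6.33, 5.54 and 5.29 CPM in mutant-labelled against 23.4, 17.8 and 25.6 CPM in wild-type libraries at 48 hpf, and 6.55, 6.92 and 6.37 CPM in mutant-labelled against 6.05, 5.82 and 7.37 CPM in wild-type libraries at 72 hpf. Here too the genotypes were apart at 48 hpf and overlapped at 72 hpf (difference 2.01, SE 0.22, adjusted p = 6.87e-04). The sum of the 5 measured tmem176l genes stood at 76.4 ± 2.48 CPM in mutant-labelled and 102 ± 10.7 CPM in wild-type libraries at 48 hpf, and at 123 ± 9.91 CPM in mutant-labelled and 127 ± 5.98 CPM in wild-type libraries at 72 hpf (SD, n = 3 each).

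ppm1h, a protein phosphatase gene, differed in its course. It held 7.28, 4.67 and 5.66 CPM in mutant-labelled and 17.1, 15.7 and 20.9 CPM in wild-type embryos at 48 hpf, and 18.4, 20.4 and 19 CPM in mutant-labelled against 21.3, 18.6 and 19.3 CPM in wild-type libraries at 72 hpf. Wild type stood at its later level already at 48 hpf, and the mutant-labelled libraries did so at 72 hpf, where the groups overlapped. The difference was 1.57 (SE 0.21, adjusted p = 0.00296). tnfaip2a, named for its induction by tumour necrosis factor in mammals, crossed over: 6.90, 7.05 and 6.81 CPM in mutant-labelled against 11.9, 13.1 and 11.96 CPM in wild-type libraries at 48 hpf, and 11.8, 11.1 and 11.6 CPM in mutant-labelled against 8.83, 8.40 and 7.59 CPM in wild-type libraries at 72 hpf. The genotypes did not overlap at either age and their order turned round, although only the 48 hpf effect was called (difference 1.3, SE 0.17, adjusted p = 0.00281, and adjusted p = 0.114 for 0.47 at 72 hpf).

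Among genes higher in mutant-labelled embryos at 48 hpf alone, clu had the smallest p. It encodes clusterin, a secreted chaperone. Its levels were 29.2, 24.7 and 22.9 CPM in mutant-labelled against 11.4, 11.2 and 12.5 CPM in wild-type libraries at 48 hpf, and 58.1, 47.3 and 48.2 CPM in mutant-labelled against 60.0, 53.4 and 51.1 CPM in wild-type libraries at 72 hpf. Both genotypes increased with age, and the mutant-labelled libraries were the higher ones only at the earlier age (difference -1.23, SE 0.17, adjusted p = 0.00354). hmgcra encodes HMG-CoA reductase, the rate-limiting enzyme of cholesterol synthesis. It stood at 8.92, 7.12 and 5.72 CPM in mutant-labelled against 3.43, 2.93 and 2.36 CPM in wild-type libraries at 48 hpf, and at 35.7, 43.8 and 35.4 CPM in mutant-labelled against 37.2, 45.1 and 40.0 CPM in wild-type libraries at 72 hpf. The genotypes were apart at 48 hpf and overlapped at 72 hpf (difference -1.41, SE 0.24, adjusted p = 0.0154). The call was lost without mutant-labelled 72 hpf replicate 3 (adjusted p = 0.0538), without wild-type 72 hpf replicate 2 and in limma-voom (adjusted p = 0.0849).

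plekhf1, which encodes an endosomal phosphoinositide-binding protein, and mmp9, a matrix metalloproteinase gene, had differences of -1.60 and -1.58 (SE 0.27 each, adjusted p = 0.0149 and 0.0159). plekhf1 lay between 5.90 and 8.34 CPM in mutant-labelled against 2.93 and 4.83 CPM in wild-type libraries at 48 hpf, and between 7.67 and 10.7 CPM in mutant-labelled against 15.3 and 18.2 CPM in wild-type libraries at 72 hpf. mmp9 lay between 16.7 and 23.0 CPM in mutant-labelled against 7.87 and 11.2 CPM in wild-type libraries at 48 hpf, and between 46.1 and 53.2 CPM in mutant-labelled against 53.1 and 95.7 CPM in wild-type libraries at 72 hpf. Both were higher in every mutant-labelled library at 48 hpf, and at 72 hpf plekhf1 was lower in all of them while mmp9 overlapped. The plekhf1 call was lost without mutant-labelled 72 hpf replicate 3 or wild-type 72 hpf replicate 2 (adjusted p up to 0.0529). The mmp9 call was lost without mutant-labelled 48 hpf replicates 1 or 2, mutant-labelled 72 hpf replicates 2 or 3, or wild-type 72 hpf replicate 2 (adjusted p up to 0.0593). pdia6, a disulfide isomerase gene of the endoplasmic reticulum, was the called member of the unfolded protein and amino acid response list (difference -0.83, SE 0.16, adjusted p = 0.0264), and 7 of the 12 single omissions ended that call (adjusted p up to 0.104): mutant-labelled 48 hpf replicate 1 and each of the 6 libraries at 72 hpf.

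**Figure D2:**
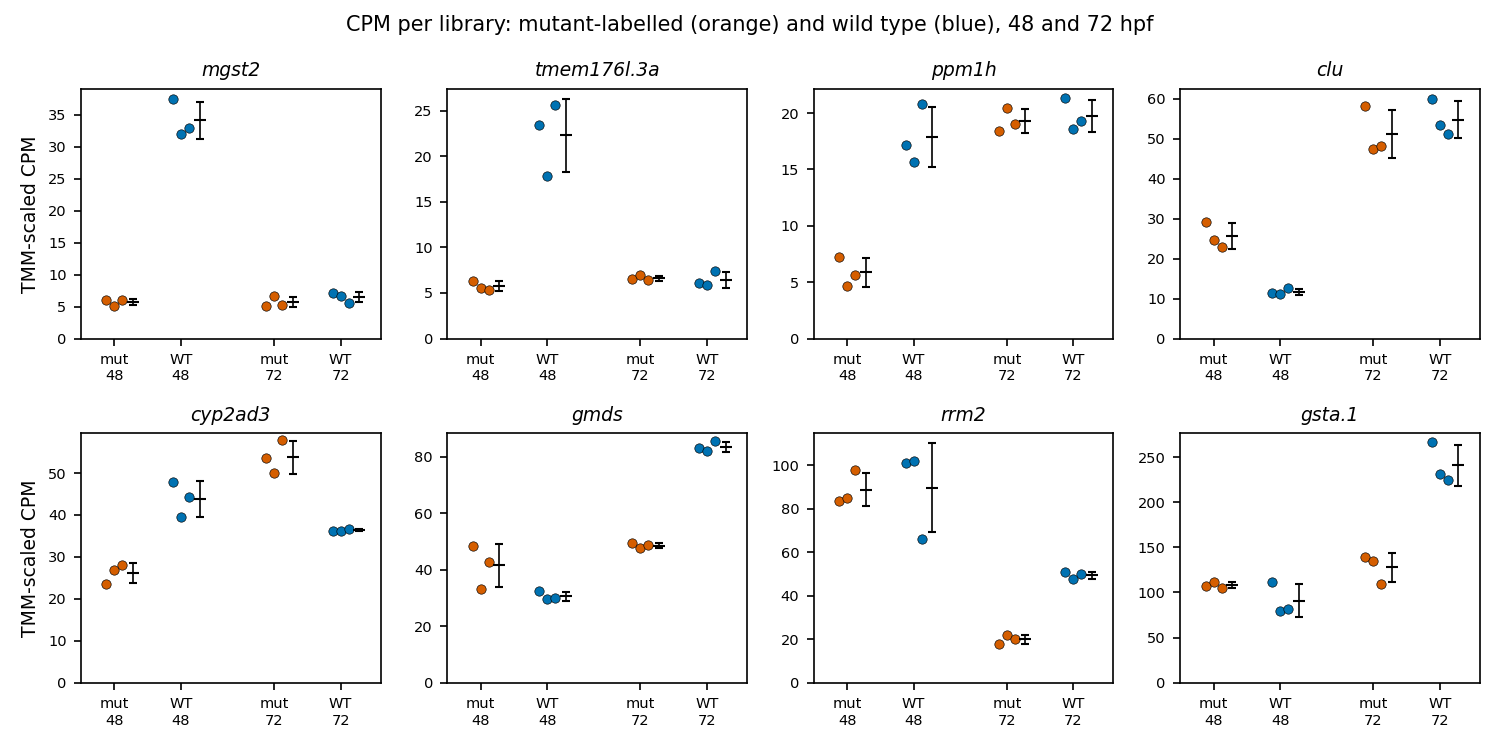
TMM-scaled CPM of 8 genes in each library, with mutant-labelled libraries in orange and wild type in blue, 48 hpf at the left and 72 hpf at the right of each panel; bars are the mean and SD of 3 libraries. mgst2, tmem176l.3a, ppm1h and clu differ between the genotypes at 48 hpf only, cyp2ad3 and gmds exchange their order, and rrm2 and gsta.1 differ at 72 hpf only.

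In 3 genes the effect reversed, with a call at each age. This class depends on the setting. In limma-voom with a weight per group 3 genes reversed, all with a positive difference, and of the 3 named here only cyp2ad3 was among them. Without wild-type 72 hpf replicate 2 the class held 0 genes. cyp2ad3, a cytochrome P450 gene that stands on the hepatocyte list, held 23.5, 26.9 and 28.2 CPM in mutant-labelled against 48.0, 39.4 and 44.2 CPM in wild-type libraries at 48 hpf, and 53.5, 49.97 and 57.8 CPM in mutant-labelled against 36.2, 36.2 and 36.6 CPM in wild-type libraries at 72 hpf. The groups did not overlap at either age and exchanged their order. The effects were -0.74 at 48 hpf (adjusted p = 0.00122) and 0.56 at 72 hpf (adjusted p = 0.0148), a difference of 1.31 (SE 0.14, adjusted p = 6.87e-04). The sum of 3 cyp2ad genes did the same, with 27.6 ± 2.83 CPM in mutant-labelled against 45.5 ± 4.38 CPM in wild-type libraries at 48 hpf and 67.0 ± 5.25 CPM in mutant-labelled against 44.1 ± 1.05 CPM in wild-type libraries at 72 hpf (SD, n = 3 each).

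gmds encodes GDP-mannose dehydratase, which begins the synthesis of GDP-fucose, the donor for fucosylated proteins. It held 48.5, 33.4 and 42.8 CPM in mutant-labelled against 32.5, 29.5 and 30.04 CPM in wild-type libraries at 48 hpf, and 49.5, 47.7 and 48.7 CPM in mutant-labelled against 83.3, 82.0 and 85.6 CPM in wild-type libraries at 72 hpf. Wild-type libraries at 72 hpf stood far above all others, and the genotypes did not overlap at either age. The effects were 0.44 (adjusted p = 0.0476) and -0.78 (adjusted p = 0.00273), a difference of -1.22 (SE 0.16, adjusted p = 0.00275).

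slc6a19a.2, a neutral amino acid transporter gene of the kind found in the intestinal brush border, was near its detection limit at 48 hpf, with 20 counts over the mutant-labelled and 2 over the wild-type libraries, a ratio of 10.6 (exact 95% counting interval 2.56 to 93.1). At 72 hpf it held 9.03, 8.41 and 8.32 CPM in mutant-labelled against 20.4, 19.5 and 17.4 CPM in wild-type libraries. The reversal therefore joins a small excess at 48 hpf to levels at 72 hpf where every mutant-labelled library was lower (72 hpf effect -1.15, adjusted p = 0.00357, and difference -4.34, SE 0.70, adjusted p = 0.0146). limma-voom did not call it (adjusted p = 0.101). Its copy slc6a19a.1 stood at 5.32 ± 1.32 CPM in mutant-labelled against 3.69 ± 0.394 CPM in wild-type libraries at 72 hpf (SD, n = 3 each).

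The 16 effects called at 72 hpf alone were mostly lower levels in mutant-labelled embryos. rrm2 (ENSDARG00000020711), the small subunit of ribonucleotide reductase, which makes the building blocks of DNA, held 83.6, 85.0 and 97.6 CPM in mutant-labelled against 101, 102 and 66.0 CPM in wild-type libraries at 48 hpf. At 72 hpf it held 17.96, 22.04 and 19.9 CPM in mutant-labelled against 50.8, 47.7 and 50.1 CPM in wild-type libraries. The genotypes overlapped at 48 hpf and were far apart at 72 hpf (72 hpf effect -1.31, adjusted p = 5.84e-04, and difference -1.297, SE 0.20, adjusted p = 0.0122). A second gene bears the same symbol (ENSDARG00000078069), and its difference had the other sign, 1.57, and did not pass (adjusted p = 0.0654). The sum of both rrm2 genes was 203 ± 16.2 CPM in mutant-labelled and 217 ± 48.2 CPM in wild-type libraries at 48 hpf, and 63.9 ± 6.74 CPM in mutant-labelled against 66.0 ± 3.17 CPM in wild-type libraries at 72 hpf (SD, n = 3 each), less than 1 SD apart at each age. How reads were divided between the copies was not tested, so the value of a single copy is uncertain.

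gsta.1, a glutathione transferase gene of the alpha class, held 107, 112 and 105 CPM in mutant-labelled against 112, 79.6 and 81.6 CPM in wild-type libraries at 48 hpf, and 140, 134 and 110 CPM in mutant-labelled against 267, 231 and 225 CPM in wild-type libraries at 72 hpf. Wild-type libraries at 72 hpf stood above all others, and the genotypes overlapped only at 48 hpf (difference -1.16, SE 0.18, adjusted p = 0.0141). With its copy gsta.2 the sum was 133 ± 16.8 CPM in mutant-labelled against 250 ± 24.1 CPM in wild-type libraries at 72 hpf. fbp2, a fructose bisphosphatase gene, followed the same course, with 41.1, 36.2 and 44.1 CPM in mutant-labelled against 43.8, 45.6 and 32.6 CPM in wild-type libraries at 48 hpf and 47.7, 43.0 and 40.1 CPM in mutant-labelled against 99.9, 84.3 and 92.8 CPM in wild-type libraries at 72 hpf. Mutant-labelled libraries at 72 hpf stood in or just above the range of both groups at 48 hpf, and wild-type libraries at 72 hpf above all others (difference -1.08, SE 0.18, adjusted p = 0.0146, and adjusted p = 0.0538 without mutant-labelled 72 hpf replicate 3).

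ociad2 held 13.6, 13.4 and 14.6 CPM in mutant-labelled against 17.6, 15.6 and 19.5 CPM in wild-type libraries at 48 hpf, and 8.88, 8.83 and 9.91 CPM in mutant-labelled against 21.4, 25.2 and 24.1 CPM in wild-type libraries at 72 hpf. It was lower in every mutant-labelled library at both ages, with the gap wider at 72 hpf (difference -1.02, SE 0.17, adjusted p = 0.0146, and adjusted p = 0.0518 without wild-type 72 hpf replicate 2). ezra, the gene of ezrin, which ties the membrane of microvilli to actin, lay between 20.9 and 21.8 CPM in mutant-labelled against 14.5 and 18.02 CPM in wild-type libraries at 48 hpf, and between 44.3 and 45.4 CPM in mutant-labelled against 58.8 and 70.33 CPM in wild-type libraries at 72 hpf. Its order turned round without overlap, while only the 72 hpf effect was called (difference -0.87, SE 0.14, adjusted p = 0.0146). Leaving out mutant-labelled 72 hpf replicate 3 or wild-type 72 hpf replicate 2 ended that call (adjusted p up to 0.053). gstp2, a glutathione transferase gene of the pi class, and abcg2a, an exporter gene, had differences of -1.24 and -0.77 (adjusted p = 0.0302 and 0.0431). Single omissions ended these calls in 8 and 9 of 12 cases, each library at 72 hpf among them except wild-type replicate 3 for gstp2 (adjusted p up to 0.0931 and 0.132).

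Of the genes called at 72 hpf alone, 4 were higher in mutant-labelled embryos, and 2 of these have ordinary symbols. cyp2p9, a cytochrome P450 gene, held 3.92, 3.31 and 2.98 CPM in mutant-labelled against 3.61, 1.37 and 4.48 CPM in wild-type libraries at 48 hpf, and 15.6, 17.4 and 18.8 CPM in mutant-labelled against 4.09, 3.47 and 2.48 CPM in wild-type libraries at 72 hpf. Mutant-labelled libraries at 72 hpf stood above all others, and the groups were apart at that age alone (72 hpf effect 2.37, adjusted p = 5.84e-04, and difference 2.27, SE 0.41, adjusted p = 0.0203). The call was lost without mutant-labelled 48 hpf replicate 2, mutant-labelled 72 hpf replicates 2 or 3, or wild-type 72 hpf replicates 2 or 3 (adjusted p up to 0.0694). The sum of 5 cyp2p genes was 46.0 ± 2.54 CPM in mutant-labelled and 34.1 ± 1.102 CPM in wild-type libraries at 72 hpf, and 11.4 ± 0.622 CPM in mutant-labelled against 11.4 ± 5.64 CPM in wild-type libraries at 48 hpf (SD, n = 3 each). fibinb, related to a gene of fin bud initiation, had a difference of 0.81 (SE 0.16, adjusted p = 0.0376), which was lost in 10 of 12 single omissions (adjusted p up to 0.123) and kept without wild-type 48 hpf replicates 2 or 3.

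The hepatocyte list had the largest positive median difference of the 30 gene lists examined. Of 85 hepatocyte genes 7 were called with a positive difference and 0 with a negative one, where 0.285% of all tested genes were called positive and 0.185% negative. At an unadjusted p under 0.05, 28 were positive and 2 negative, against 5.79% and 4.59% of all genes. The median difference of the list was 0.44, against 0.01 over all tested genes. Of its 85 differences 69 were positive, against 10810 of all 21068. The median difference came from a median of -0.29 at 48 hpf and 0.20 at 72 hpf. In wild type the summed level of the list fell from 48200, 33150 and 47270 CPM at 48 hpf to 11120, 10870 and 8802 CPM at 72 hpf. Of its called genes cyp2ad3, f10, pck1 and g6pca.1 decreased with age in wild type, while uox, fabp10a and hpda increased. Which tissue held this RNA was not tested.

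uox, urate oxidase, held 1.01, 2.01 and 1.03 CPM in mutant-labelled against 4.04, 2.34 and 4.36 CPM in wild-type libraries at 48 hpf, and 60.7, 52.5 and 56.1 CPM in mutant-labelled against 42.9, 43.9 and 40.4 CPM in wild-type libraries at 72 hpf. The groups did not overlap at either age and changed order (difference 1.85, SE 0.30, adjusted p = 0.0146, and adjusted p = 0.0534 without mutant-labelled 48 hpf replicate 1). f10, coagulation factor X, lay between 30.3 and 37.8 CPM in mutant-labelled against 54.3 and 90.7 CPM in wild-type libraries at 48 hpf, and between 22.1 and 25.8 CPM in mutant-labelled against 17.0 and 21.3 CPM in wild-type libraries at 72 hpf. It too changed order without overlap (difference 1.38, SE 0.23, adjusted p = 0.0155). pck1, which commits carbon to glucose synthesis, lay between 75.2 and 108 CPM in mutant-labelled against 143 and 201 CPM in wild-type libraries at 48 hpf, and between 107 and 138 CPM in mutant-labelled against 89.0 and 112 CPM in wild-type libraries at 72 hpf. It overlapped at 72 hpf only (difference 1.19, SE 0.21, adjusted p = 0.0206).

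fabp10a, the fatty acid binding protein that marks hepatocytes in zebrafish, held 0.759, 0.863 and 0.487 CPM in mutant-labelled against 3.55, 0.716 and 3.65 CPM in wild-type libraries at 48 hpf, and 53.9, 45.9 and 59.3 CPM in mutant-labelled against 35.9, 34.5 and 29.7 CPM in wild-type libraries at 72 hpf. Wild-type 48 hpf replicate 2 stood with the mutant-labelled libraries, and at 72 hpf every mutant-labelled library was higher (difference 2.60, SE 0.51, adjusted p = 0.0329). g6pca.1, glucose-6-phosphatase, and hpda, an enzyme of tyrosine breakdown, had differences of 1.2 each (SE 0.25 each, adjusted p = 0.0463 and 0.0464). Both were lower in every mutant-labelled library at 48 hpf, and at 72 hpf g6pca.1 was higher in all of them while hpda overlapped.

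Only 7 of the 60 genes called with a positive difference stand on the list. From those off it a few were picked here after their values were seen. They were selenop2, a selenium carrier (difference 1.91, adjusted p = 0.0141), the glucose transporter gene slc2a3a (1.04, adjusted p = 0.0147), prnpa, of the prion protein family (2.86, adjusted p = 0.0176), and the bile acid transporter gene slc10a1 (2.41, adjusted p = 0.0471). All 39 called genes with a negative difference lay off the list as well. The fitted levels of selenop2, slc2a3a and prnpa lay below wild type at 48 hpf and above it at 72 hpf. At 48 hpf prnpa rested on 9 counts over the mutant-labelled and 42 over the wild-type libraries. slc10a1 was lower in every mutant-labelled library at both ages, with 0.886, 1.80 and 1.09 CPM in mutant-labelled against 5.69, 8.20 and 13.6 CPM in wild-type libraries at 48 hpf and 1.08, 1.08 and 0.885 CPM in mutant-labelled against 1.21, 1.62 and 1.399 CPM in wild-type libraries at 72 hpf. The call of selenop2 was lost without wild-type 72 hpf replicate 2 (adjusted p = 0.0518). Those of prnpa and slc2a3a were lost without that library and without mutant-labelled 72 hpf replicate 3 for prnpa and replicate 2 for slc2a3a (adjusted p up to 0.053 and 0.0527), and that of slc10a1 in 9 of 12 omissions (adjusted p up to 0.15).

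The hepatocyte-list values turn on few libraries. Each library was summarised by centring the log2 CPM of every list gene on its mean over the 12 libraries and averaging over the list. Hepatocyte genes stood at -0.24, -0.04 and -0.43 in mutant-labelled replicates 1 to 3 against 0.26, -0.23 and 0.32 in wild type at 48 hpf, and at 0.22, 0.04 and 0.12 in mutant-labelled against 0.09, 0.06 and -0.17 in wild-type replicates at 72 hpf. The genotypes overlapped at both ages, and wild-type 48 hpf replicate 2 lay apart from the others of its group. Without that library 20 list members were called and the median difference was 0.61. Without mutant-labelled 48 hpf replicate 1 a single member was called, and the lowest median over single omissions was 0.31 (without wild-type 48 hpf replicate 1). The calls of f10, pck1, g6pca.1, hpda and fabp10a were lost in 5, 6, 9, 9 and 10 of 12 omissions (adjusted p up to 0.0596, 0.0778, 0.143, 0.13 and 0.0959), among them mutant-labelled 48 hpf replicate 1, mutant-labelled 72 hpf replicates 1 and 3, and wild-type 72 hpf replicates 2 and 3 for each of the 5 genes. The median stayed positive at 0.34 with library totals alone.

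**Figure D3:**
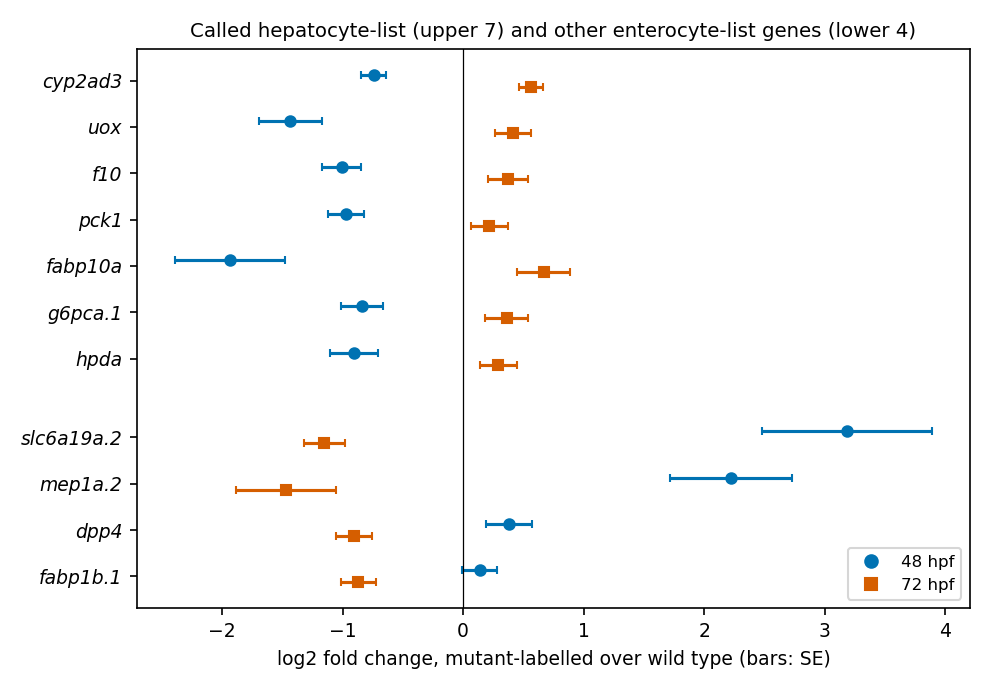
Log2 fold changes of mutant-labelled over wild type at 48 hpf (blue circles) and 72 hpf (orange squares), with bars for the SE from the edgeR model. The upper 7 genes are the called hepatocyte-list genes, among them pck1, which stands on both lists. The lower 4 are the enterocyte-list genes called with a negative difference. The upper 7 lie below 0 at 48 hpf and above 0 at 72 hpf. The lower 4 lie above 0 at 48 hpf, fabp1b.1 by less than its SE, and below 0 at 72 hpf.

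Of 61 enterocyte genes, those of the absorptive gut, 38 had a negative and 23 a positive difference. Over all 21068 tested genes these counts were 10258 and 10810. In the list 4 were called with a negative difference (slc6a19a.2, mep1a.2, dpp4 and fabp1b.1) and 1 with a positive one (pck1, which stands on both lists). Of all tested genes 0.185% were called negative and 0.285% positive. At an unadjusted p under 0.05, 16 were negative and 7 positive, against 4.59% and 5.79% of all tested genes. The median difference was -0.21, from -0.15 at 48 hpf and -0.54 at 72 hpf, so that the list median lay below wild type at both ages and further at 72 hpf. Of the 61 genes 4 were called lower and 2 higher at 48 hpf, and 17 and 0 at 72 hpf. Of all tested genes 2% were called lower and 1.04% higher at 48 hpf, and 0.422% and 0.133% at 72 hpf. By library the list stood at -0.86, -0.79 and -1.002 in mutant-labelled against -0.77, -0.78 and -0.70 in wild-type replicates at 48 hpf, and at 0.53, 0.53 and 0.59 in mutant-labelled against 0.9991, 1.204 and 1.06 in wild-type replicates at 72 hpf. The groups were close at 48 hpf, without overlap, and well apart at 72 hpf. The summed level of the list overlapped between the genotypes at both ages. It fell from 29390, 21110 and 30990 CPM at 48 hpf to 6364, 6489 and 5588 CPM at 72 hpf in wild type. In mutant-labelled libraries it fell from 24550, 30190 and 19660 CPM to 7015, 6006 and 6994 CPM. Which tissue held this RNA was not tested. Over single omissions 1 to 7 members were called, with 1 without mutant-labelled 48 hpf replicate 1 and 7 without wild-type 48 hpf replicate 2.

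dpp4, a dipeptidyl peptidase of the brush border, held 4.55, 5.90 and 3.59 CPM in mutant-labelled against 3.85, 3.32 and 3.53 CPM in wild-type libraries at 48 hpf, and 13.7, 15.3 and 14.2 CPM in mutant-labelled against 24.5, 32.0 and 24.6 CPM in wild-type libraries at 72 hpf. fabp1b.1, a fatty acid binding protein gene, held 1236, 1184 and 881 CPM in mutant-labelled against 1165, 995 and 842 CPM in wild-type libraries at 48 hpf, and 61.0, 65.5 and 56.5 CPM in mutant-labelled against 115, 124 and 96.0 CPM in wild-type libraries at 72 hpf. Both overlapped at 48 hpf and were lower in every mutant-labelled library at 72 hpf (differences -1.29 and -1.01, SE 0.24 and 0.20, adjusted p = 0.0263 and 0.044). These calls were lost in 7 and 8 of 12 omissions, among them mutant-labelled 48 hpf replicates 1 and 2 and every mutant-labelled library at 72 hpf (adjusted p up to 0.0812 and 0.147). mep1a.2, a meprin protease gene, had a difference of -3.69 (SE 0.66, adjusted p = 0.0203) at levels between 0.0651 and 1.51 CPM in all libraries. The sum of mep1a.1 and mep1a.2 was 1.26 ± 0.274 CPM in mutant-labelled against 0.368 ± 0.0903 CPM in wild-type libraries at 48 hpf and 2.14 ± 0.536 CPM in mutant-labelled against 2.11 ± 0.434 CPM in wild-type libraries at 72 hpf (SD, n = 3 each). Its call was lost in 6 of 12 omissions, each mutant-labelled 72 hpf library among them (adjusted p up to 0.0779). Of the 25 goblet and enteroendocrine, 26 endoderm transcription factor and 26 exocrine pancreas genes none was called, with medians of -0.12, -0.10 and -0.09. At an unadjusted p under 0.05, 0, 1 and 1 were positive and 3, 2 and 2 negative, against 5.79% and 4.59% of all tested genes.

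Genes of cholesterol synthesis had a median difference of -0.41, from 0.36 at 48 hpf to -0.07 at 72 hpf. Of 30 differences 24 were negative, against 10258 of all 21068. Of these 30, hmgcra was called and 12 had an unadjusted p under 0.05, all negative, against 4.59% negative of all tested genes. fdps, the gene of farnesyl diphosphate synthase, had a difference of -0.66 and was not called (adjusted p = 0.0766). By library the list stood at 0.06, -0.03 and -0.16 in mutant-labelled against -0.34, -0.48 and -0.25 in wild-type replicates at 48 hpf, and at 0.14, 0.18 and 0.12 in mutant-labelled against 0.24, 0.28 and 0.23 in wild-type replicates at 72 hpf. The genotypes did not overlap, and mutant-labelled libraries were the higher ones at 48 hpf and the lower ones at 72 hpf. The number of called members ranged from 0 without mutant-labelled 72 hpf replicate 3 to 6 without wild-type 48 hpf replicate 3.

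Genes of mitosis had small differences, nearly all of 1 sign, and none passed the threshold. Of 55 genes 53 had a negative difference, against 10258 of all 21068 tested genes. The median was -0.35, from 0.23 at 48 hpf and -0.08 at 72 hpf. None was called in edgeR, DESeq2 or limma-voom, while 22 were negative and 0 positive at an unadjusted p under 0.05. Of all tested genes 4.59% were negative and 5.79% positive at that threshold. The smallest p was that of aurkb, the Aurora B kinase of chromosome segregation, at -0.57 (SE 0.17, adjusted p = 0.189). By library the list stood at 0.51, 0.44 and 0.76 in mutant-labelled against 0.44, 0.34 and 0.27 in wild-type replicates at 48 hpf, and at -0.54, -0.50 and -0.48 in mutant-labelled against -0.42, -0.42 and -0.41 in wild-type replicates at 72 hpf. Mutant-labelled replicate 3 was the highest at 48 hpf, where the groups overlapped slightly, and at 72 hpf every mutant-labelled library was lower. The median was -0.26 without mutant-labelled 48 hpf replicate 3 and -0.43 without replicate 2. DNA replication genes had a median of -0.10, with 0 of 46 called and 1 positive and 3 negative at an unadjusted p under 0.05.

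Lens genes had a median difference of -0.41, from 0.39 at 48 hpf and 0.03 at 72 hpf, and 39 of 48 were negative. None was called by any of edgeR, DESeq2 and limma-voom. Of all 21068 tested genes 10258 were negative, and at an unadjusted p under 0.05 4.59% were negative and 5.79% positive. Among the lens genes there were 5 negative and 0 positive differences at that threshold, led by lim2.5, a lens fibre membrane protein gene (difference -1.10, adjusted p = 0.176). The list stood at -0.59, -0.46 and -1.07 in mutant-labelled against -1.57, -0.87 and -0.87 in wild-type replicates at 48 hpf, and at 0.95, 0.95 and 0.81 in mutant-labelled against 0.91, 0.94 and 0.87 in wild-type replicates at 72 hpf. The genotypes overlapped at both ages, without wild-type 48 hpf replicate 1 the median was -0.19, and without wild-type 48 hpf replicate 2 there were 8 called lens genes. Neuron and neural progenitor or glia genes had medians of -0.13 and -0.18, with 45 of 59 and 41 of 54 negative, none called, and 7 and 6 negative against 0 and 0 positive at an unadjusted p under 0.05. Circadian clock genes had a median of 0.18 (0.08 with library totals alone), with 0 of 40 called, and 11 positive and 0 negative at an unadjusted p under 0.05. Their smallest p was that of bhlhe41, a repressor in the clock (difference 0.66, adjusted p = 0.274).

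**Figure D4:**
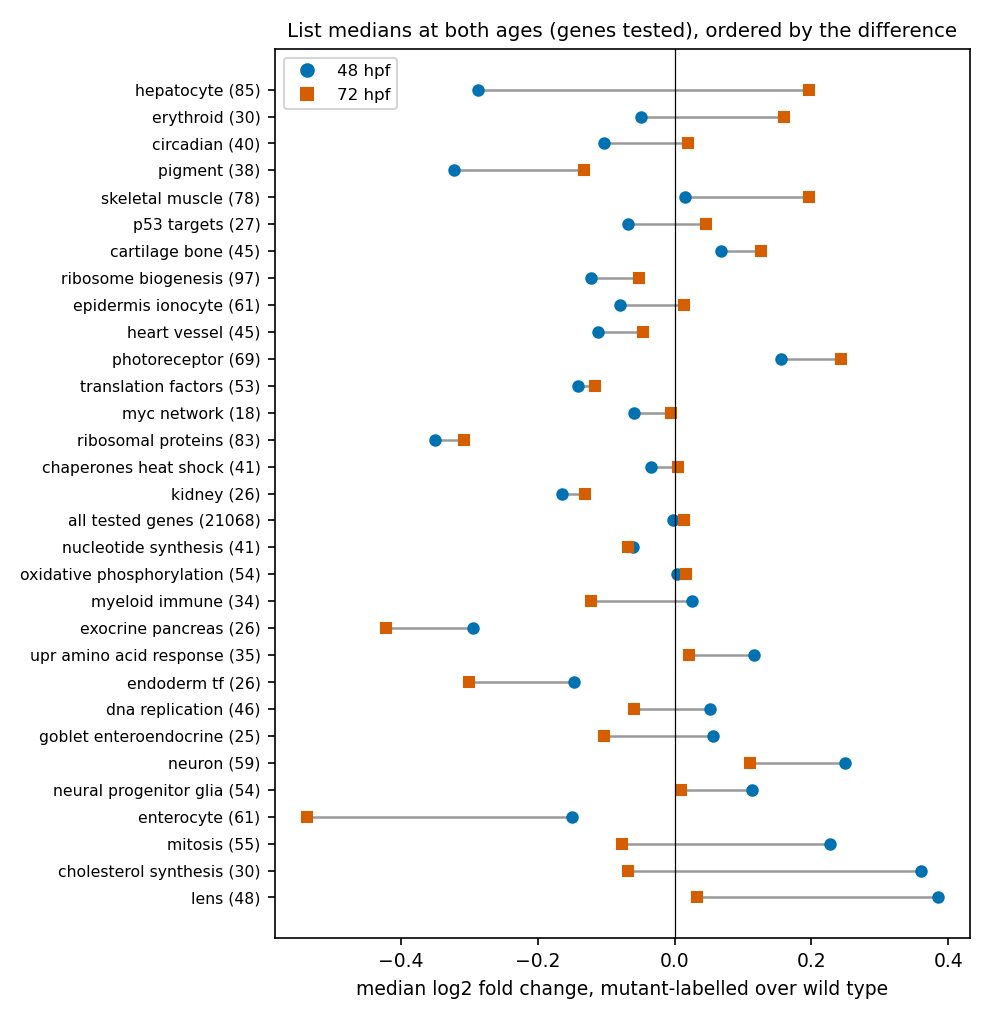
Median log2 fold change of mutant-labelled over wild type at 48 hpf (circles) and 72 hpf (squares) for 30 gene lists and all tested genes, with the number of genes tested in parentheses, ordered by the median difference. Hepatocyte genes lie at -0.29 and 0.20, enterocyte genes at -0.15 and -0.54, and ribosomal protein genes at -0.35 and -0.31.

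The genes through which Myc factors act on growth had small median differences between the ages. Fewer of them were called at 72 hpf, as held for all tested genes in this model (641 at 48 hpf and 117 at 72 hpf). In limma-voom the order of the ages was the other one for all genes (214 and 635). Ribosomal protein genes had medians of -0.35 at 48 hpf and -0.31 at 72 hpf, and a median difference of 0.05 that turned to -0.05 with library totals alone. Of 83 genes 0 were called in the difference, and 0 in DESeq2 and limma-voom. At an unadjusted p under 0.05, 1 was positive and 0 negative, against 5.79% and 4.59% of all tested genes. The list stood at 0.50, 0.55 and 0.39 in mutant-labelled against 0.81, 0.81 and 0.84 in wild-type replicates at 48 hpf, and at -0.85, -0.74 and -0.80 in mutant-labelled against -0.36, -0.53 and -0.62 in wild-type replicates at 72 hpf. The mutant-labelled libraries were the lower ones at each age. Of the 83 genes 19 were called lower at 48 hpf and 2 at 72 hpf, against 2% and 0.422% of all tested genes. Genes of ribosome biogenesis had medians of -0.12 at 48 hpf and -0.05 at 72 hpf, and a median difference of 0.09 (-0.01 with library totals alone). Of 97 genes 64 had a positive difference, with 5 positive and 0 negative at an unadjusted p under 0.05. At 48 hpf 5 were called lower and at 72 hpf 0, and 1 of the 97 was called in the difference.

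That gene was ddx21, a nucleolar RNA helicase of ribosomal RNA synthesis. It held 90.5, 102 and 87.4 CPM in mutant-labelled against 172, 169 and 196 CPM in wild-type libraries at 48 hpf, and 82.6, 67.6 and 76.4 CPM in mutant-labelled against 96.1, 88.9 and 85.5 CPM in wild-type libraries at 72 hpf. It was lower in every mutant-labelled library at both ages, with a smaller gap at 72 hpf (effects -0.94 and -0.26, difference 0.68, SE 0.14, adjusted p = 0.0483). This call was lost in 11 of 12 single omissions, with wild-type 48 hpf replicate 2 the exception (adjusted p up to 0.162), and with library totals, DESeq2-type RLE factors and the replicate block. In the Myc network list 0 of 18 genes were called, with 1 positive and 1 negative at an unadjusted p under 0.05, and mycn had the smallest p. Translation factors and p53 targets had medians of 0.07 and 0.14, with 0 of 53 and 0 of 27 called. At an unadjusted p under 0.05 each had 3 positive, against 4 and 0 negative. Of all tested genes 5.79% were positive and 4.59% negative at that threshold. Of the 53 translation factors 8 were called lower and 3 higher at 48 hpf, and 0 and 0 at 72 hpf. Of all tested genes 2% were called lower and 1.04% higher at 48 hpf, and 0.422% and 0.133% at 72 hpf. In oxidative phosphorylation 0 of 54 passed even the unadjusted threshold (median -0.01). For the gut, pancreas, cell cycle, lens, neural, clock and Myc-related lists with 0 calls in edgeR, DESeq2 called 1 goblet and enteroendocrine gene and no other, and limma-voom called 0.

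Among erythroid genes 1 of 30 was called, hbbe1.1, an embryonic beta globin. It held 1025, 1400 and 2359 CPM in mutant-labelled against 7625, 4589 and 6681 CPM in wild-type libraries at 48 hpf, and 181, 162 and 199 CPM in mutant-labelled against 127, 182 and 185 CPM in wild-type libraries at 72 hpf. It was lower in every mutant-labelled library at 48 hpf and overlapped at 72 hpf (difference 2.12, SE 0.35, adjusted p = 0.0146, and adjusted p = 0.0532 without mutant-labelled 72 hpf replicate 3). Its neighbours hbbe1.2 and hbbe1.3 had differences of 0.15 and 0.32 that did not pass (adjusted p = 0.925 and 0.69). The sum of the 3 copies was 8247 ± 825 CPM in mutant-labelled and 12850 ± 2814 CPM in wild-type libraries at 48 hpf, and 406 ± 71.2 CPM in mutant-labelled against 354 ± 26.3 CPM in wild-type libraries at 72 hpf (SD, n = 3 each). The list had a median of 0.32, which was 0.11 without wild-type 48 hpf replicate 1. At an unadjusted p under 0.05, 1 of the 30 was positive and 1 negative, against 5.79% and 4.59% of all tested genes. Of all tested genes 0.285% were called with a positive difference.

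Both genes called in the contrast and at neither single age had negative differences. actc1a (ENSDARG00000076126), an actin gene of the heart and early muscle, held 147, 143 and 188 CPM in mutant-labelled against 91.7, 47.1 and 114 CPM in wild-type libraries at 48 hpf, and 34.1, 17.3 and 18.1 CPM in mutant-labelled against 57.2, 52.6 and 55.4 CPM in wild-type libraries at 72 hpf. Its groups did not overlap and changed order (difference -2.16, SE 0.38, adjusted p = 0.0181). Another gene with the same symbol had a difference of 0.97 (adjusted p = 0.189), and the sum of both was 477 ± 37.1 CPM in mutant-labelled against 595 ± 182 CPM in wild-type libraries at 48 hpf and 147 ± 23.2 CPM in mutant-labelled against 157 ± 11.7 CPM in wild-type libraries at 72 hpf (SD, n = 3 each). The actc1a call was lost in 5 of 12 omissions, mutant-labelled 72 hpf replicates 2 and 3 and each wild-type 72 hpf library (adjusted p up to 0.0679). mat2al, a methionine adenosyltransferase gene, changed order in the same way (difference -0.99, SE 0.20, adjusted p = 0.0449), and its call was lost in 9 of 12 omissions (adjusted p up to 0.148).

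A pair of related interferon-induced genes, named after their values were seen, moved in opposite directions. ifi45 lay between 0.487 and 0.822 CPM in mutant-labelled against 2.99 and 4.099 CPM in wild-type libraries at 48 hpf, and between 1.19 and 1.60 CPM in mutant-labelled against 0.915 and 1.4 CPM in wild-type libraries at 72 hpf (difference 2.59, SE 0.43, adjusted p = 0.0149). ifi46 lay between 2.59 and 2.73 CPM in mutant-labelled against 0.857 and 0.976 CPM in wild-type libraries at 48 hpf, and between 0.155 and 0.465 CPM in mutant-labelled against 0.646 and 0.908 CPM in wild-type libraries at 72 hpf (difference -2.89, SE 0.52, adjusted p = 0.0203). The sum of both was 3.32 ± 0.137 CPM in mutant-labelled against 4.27 ± 0.595 CPM in wild-type libraries at 48 hpf and 1.67 ± 0.367 CPM in mutant-labelled against 1.94 ± 0.332 CPM in wild-type libraries at 72 hpf (SD, n = 3 each). Their calls were lost in 3 and 5 of 12 omissions (adjusted p up to 0.0579 and 0.0732). ca15a, a carbonic anhydrase gene of ionocytes in zebrafish, was the called member of the 61 epidermis and ionocyte genes (difference 1.18, SE 0.24, adjusted p = 0.0443), and lost its call in 9 of 12 omissions (adjusted p up to 0.147).

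The lists of the other single called genes held no further called difference. Of all tested genes 5.79% were positive and 4.59% negative at an unadjusted p under 0.05. Of 41 nucleotide synthesis genes 5 were positive and 2 negative at an unadjusted p under 0.05 (median -0.01), with rrm2 the called one. Of 34 myeloid and immune genes, with mmp9 called, 2 were positive and 2 negative (median -0.04), and of 78 skeletal muscle genes, with actc1a called, 3 were positive and 2 negative (median 0.15). The unfolded protein and amino acid response list had a median of -0.10, with 1 positive and 2 negative of 35 at that threshold. The epidermis and ionocyte list had a median of 0.09 (-0.01 with library totals alone), with 7 positive and 3 negative of 61. Of 69 photoreceptor, 38 pigment, 45 heart and vessel, 45 cartilage and bone, 41 chaperone and 26 kidney genes 0 were called in edgeR, and 6, 3, 3, 4, 2 and 2 were positive against 4, 1, 1, 2, 0 and 1 negative at an unadjusted p under 0.05. DESeq2 called 1 chaperone gene and 1 heart and vessel gene among them, and limma-voom 1 heart and vessel gene. Their medians lay between 0.01 for kidney and 0.17 for pigment genes, and with library totals alone those of photoreceptor, heart and vessel, chaperone and kidney genes turned negative (-0.02, -0.02, -0.10 and -0.09).

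Genes with clone or locus names made up 25 of the 99. The share of such names among all tested genes was not counted, so this number is a description only. The clearest was si:dkey-169i5.4, with 2 counts over the mutant-labelled and 181 over the wild-type libraries at 48 hpf, a ratio of 0.0117 (exact 95% counting interval 0.0014 to 0.0427). At 72 hpf it held 3.56, 2.79 and 3.07 CPM in mutant-labelled against 3.13, 3.42 and 3.50 CPM in wild-type libraries. It was nearly undetected in mutant-labelled embryos at 48 hpf and overlapped with wild type at 72 hpf (difference adjusted p = 5.71e-05). si:dkey-93m18.6 had 0 counts over the mutant-labelled and 182 over the wild-type libraries at 48 hpf, at least 57.5-fold lower, and BX276102.1 had 87 and 0, at least 30.6-fold higher, with the floor set at 3 counts over a group.

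The chromosome that carries mycn was the only one whose share of the called genes was counted. Of the 99, 86 could be placed on a chromosome through the RefSeq gene table, and 12 of these (14%) lie on the chromosome that carries mycn, where 790 of 18603 placed tested genes (4.25%) lie. They are mep1a.2, pdia6, clu, ccm2, cyp2p9, cyp2ad3, gmds, slc10a1, tnfaip2a, ociad2, actc1a and si:ch211-253p18.2, and so include 2 of the 3 genes whose effect reversed. What the shared chromosome has to do with these differences was not tested.

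**Figure D5:**
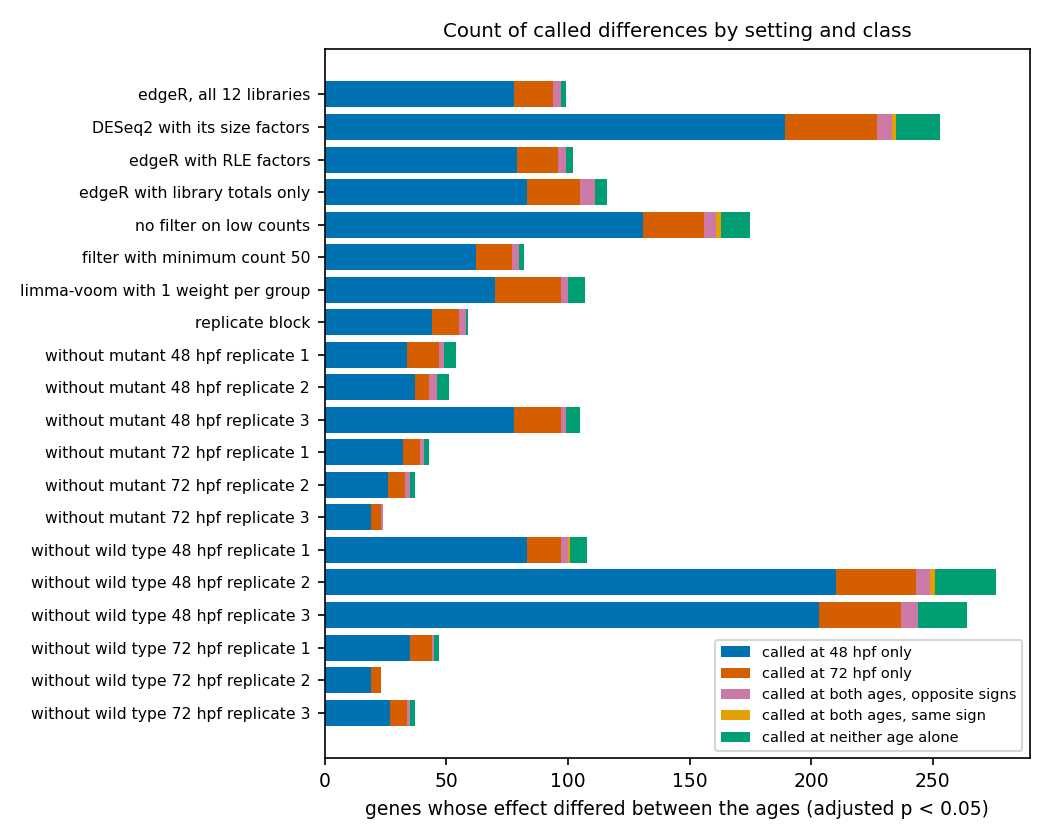
Number of genes called in the difference between the ages (x axis) under the edgeR model of all 12 libraries, at the top, and under each of 19 alternatives, coloured by the ages at which the genotypes differed. Genes called at 48 hpf only form the largest class in every setting, while the total runs from 23 without wild-type 72 hpf replicate 2 to 276 without wild-type 48 hpf replicate 2.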

How the data were processed

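The authors deposited unnormalized read counts for Ensembl genes, each with its symbol. Per the submitters' processing notes the tools were STAR, featureCounts and DESeq2 and the build GRCz11. For versions, strand use and annotation release the sources used here give nothing, so overlapping or antisense genes and near-identical copies are uncertain. Counts were tested in R 4.3.3 with edgeR 4.0.16: filterByExpr with a minimum count of 10, TMM scaling, 1 quasi-likelihood model (glmQLFit, glmQLFTest) of all 12 libraries with a coefficient per group, and Benjamini-Hochberg adjustment over 21068 genes. A gene was called at an adjusted p under 0.05. Every adjusted p comes from this test unless another tool is named. Alternatives used DESeq2 1.42.0, limma 3.58.1 (voom with 1 weight per group), other scalings and filters, a replicate block, and omission of each library. The steps were tested on simulated counts. These had 1 spread per gene for all groups, so the simulation cannot show what unequal spread between the groups does to the calls.

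A count of 3 was worth 0.151 to 0.216 CPM per library. Counting intervals and floors cover counting error only. Replicate pairs differed by more than sampling noise (chi-square per degree of freedom 4.35 to 53.2). 603 symbols stand on more than 1 gene, and every line names a gene. Of 1533 listed symbols 1470 were found.

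Named genes are mycn, up to 4 called genes of each sign by smallest p in the classes called at 48 hpf only, at 72 hpf only and reversed, up to 2 of each sign in the other classes (average log2 CPM of at least 0 and no clone name), and up to 2 called members of each list, or its member of smallest p. Other genes were named after their values were seen. The contrast, the lists and the rule were chosen with earlier results of these data known. Lists are described by counts and medians, with no test of their own.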

Additional observations from a re-analysis of the deposited data

Results flagged for a closer look

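The genes below are listed because the effect of the mutant label at 72 hpf minus that at 48 hpf was itself tested and passed (edgeR quasi-likelihood test, adjusted p under 0.05), on the log2 scale. Groups of 3 libraries are too small for the check on single outlying samples, which was not made. The positive differences were 2.86 for prnpa, 2.60 for fabp10a, 2.59 for ifi45, 2.41 for slc10a1, 2.39 for mgst2, 2.27 for cyp2p9, 2.12 for hbbe1.1, 2.01 for tmem176l.3a, 1.91 for selenop2, 1.85 for uox, 1.57 for ppm1h and 1.38 for f10. Smaller ones were 1.31 for cyp2ad3, 1.3 for tnfaip2a, 1.2 for g6pca.1 and for hpda, 1.19 for pck1, 1.18 for ca15a, 1.04 for slc2a3a, 0.81 for fibinb and 0.68 for ddx21.

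The negative differences were -4.34 for slc6a19a.2, -3.69 for mep1a.2, -2.89 for ifi46, -2.16 for actc1a, -1.60 for plekhf1, -1.58 for mmp9, -1.41 for hmgcra, -1.3 for rrm2, -1.29 for dpp4, -1.24 for gstp2, -1.23 for clu, -1.22 for gmds and -1.16 for gsta.1. Smaller ones were -1.08 for fbp2, -1.02 for ociad2, -1.01 for fabp1b.1, -0.99 for mat2al, -0.87 for ezra, -0.83 for pdia6 and -0.77 for abcg2a. The value of slc6a19a.2 is fitted against a group with 2 counts and depends on the prior count. Several genes have related copies, whose summed group means gave smaller differences between the ages (log2 of the mutant-labelled to wild-type ratio, 72 hpf minus 48 hpf, with no test). These were 0.05 for the sum with rrm2, 0.15 for that of ifi45 and ifi46, 0.23 for actc1a, 0.37 for tmem176l.3a, 0.44 for cyp2p9, 0.84 for hbbe1.1, 0.93 for fabp10a, -1.47 for slc6a19a.2 and -1.76 for mep1a.2. For cyp2ad3, gsta.1 and fabp1b.1 the sums gave 1.33, -1.06 and -1.01.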

How the results depend on the processing

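The contrast rests on 3 libraries per group, a wider spread at 48 hpf and 1 spread shared by all groups, so single libraries decide many calls. No named difference changed sign in any alternative. Over omissions of single libraries the number of called differences ranged from 23 to 276, genes called at 48 hpf from 222 to 1133 and at 72 hpf from 24 to 195. Called differences seen at 48 hpf only ranged from 19 to 210, at 72 hpf only from 4 to 34, reversed from 0 to 7, of 1 direction from 0 to 2 and at neither age from 0 to 25. DESeq2 called 253 differences (189 at 48 hpf only, 38 at 72 hpf only, 6 reversed, 2 of 1 direction, 18 at neither age), which hold all 99, and 1023 and 249 genes at 48 and 72 hpf. Without a filter on low counts 175 passed (131, 25, 5, 2 and 12 in the same order), with more genes tested. limma-voom with a weight per group called 107, of which 77 are among the 99, with 27 at 72 hpf only and 7 at neither age, and 214 and 635 genes at 48 and 72 hpf, so that the order of the ages turned round. Library totals gave 6 reversed and 5 at neither age. The cause of these shifts was not tested.

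Replicate numbers are shared by the groups, but do not appear to pair the libraries. Deviations from the group mean correlated at -0.155 to 0.0233 between libraries of the same number (18 pairs, median -0.00692). Between different numbers they correlated at -0.083 to 0.157 (36 pairs). Whether libraries of the same number shared a clutch cannot be told from these values. A replicate block gave 59 called differences (44 at 48 hpf only and 1 at neither age), 58 of them among the 99, and 74 genes at 72 hpf. It ended the calls of abcg2a, ca15a, ddx21, fabp10a, fibinb, g6pca.1, hpda, mat2al, mep1a.2 and slc10a1 (adjusted p from 0.0506 to 0.102). limma-voom ended those of abcg2a, dpp4, fabp10a, gstp2, hmgcra, hpda, mmp9, prnpa, slc10a1 and slc6a19a.2 (adjusted p from 0.0504 to 0.41), library totals those of ca15a, ddx21, fibinb, g6pca.1, hpda and slc10a1 (adjusted p from 0.0541 to 0.0886), and a minimum count of 50 that of slc10a1 (adjusted p = 0.0569).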
